A study of Bos taurus with 28 samples.

Results

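Expression of 73 signalling genes was described in subcutaneous adipose tissue (AT) of Holstein cows around calving. These genes encode receptors coupled to G proteins, G protein subunits and their regulators, cyclic nucleotide phosphodiesterases, protein kinases of the AMPK, PKC and MAPK families, PI3K subunits, protein tyrosine phosphatases, and regulators or members of several families of small GTPases. They were taken by the start of their symbol (GPR, ADR, ADCY, GRK, RGS, GNA, GNB, GNG, PDE, PRK, MAPK, MAP2K, MAP3K, MAP4K, PIK3, PTP, DUSP, ARHG, RAB, RASA or RASGR) and needed a count of 3 or more in any library. Of 75 IDs with such a symbol, 73 met the read minimum, among 18905 genes of the series that did so. GPR6 had no read and DUSP21 had 1 read, and both were left out. Symbols were at hand for 1865 of the 24616 gene IDs, so genes of these families without a symbol were not included. No sequence is printed for any of these genes.

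The 28 libraries were each made from a surgical biopsy of the right flank, taken from 11 healthy multiparous cows that received no experimental treatment. By the paper's methods, all cows had a close-up diet before calving and a fresh diet after it. Later biopsies followed earlier surgery on the same flank, with the incision site moved. Diet, earlier surgery and lactation cannot be told apart in the differences between PreP and the later time points. PreP (9 libraries) was sampled on day -11 relative to the expected calving date, in the dry late-pregnant cow. PP1 (10 libraries) was sampled on day 6 and PP2 (9 libraries) on day 13 of lactation. The paper gives these days as averages with a spread between cows. The 3 time points were all available for 8 cows, and 9 cows had both PP1 and PP2. A biopsy holds every cell type of the tissue. Fewer cells of a type and less RNA per cell cannot therefore be told apart in any value given here. The sample labels name adipose tissue throughout, while 1 sentence of the series description speaks of mammary glands. PPARG, the master regulator of adipocyte differentiation and the only 1 of 15 listed adipocyte markers with an ID, lay between 20 and 246 CPM in all libraries. CPM are read counts brought to a common library size after TMM scaling, and SE stands for the standard error of a fitted log2 fold change. The mammary keratins KRT8 and KRT18 together reached 3.34 CPM at most.

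Lipolysis in adipocytes is switched on by catecholamines. They bind β-adrenergic receptors, the stimulatory G protein activates adenylyl cyclase, and the resulting cAMP activates protein kinase A, which phosphorylates hormone-sensitive lipase and perilipin. Inhibitory G proteins lower adenylyl cyclase activity, phosphodiesterases (PDE) break down cAMP, receptor kinases (GRK) desensitise the receptors and RGS proteins shorten the active state of G proteins. AMP-activated protein kinase (AMPK) responds to a falling energy charge and restrains fat synthesis. MAP kinase, PI3K and phosphatase genes carry insulin, growth factor and stress signals, and small GTPases govern cell shape and vesicle traffic.

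The question was whether these genes were transcribed at another level once lactation had begun. At PP1, 1 of 73 was differentially expressed (DEG) against PreP, or 1.37%, where 4.03% of all 18467 genes tested were. At PP2, 2 of 72 were DEGs, or 2.78%, against 5.47% of 18558 genes. A DEG passed an FDR (p adjusted after Benjamini-Hochberg) of 0.05 over all genes in edgeR's quasi-likelihood test and an absolute log2 fold change over 1, with positive values for the later time point. The DEGs were MAPK8IP1 at PP1 and PDE4D and PDE4DIP at PP2, each with a positive log2 fold change. For PDE4DIP, 1 library at PP2 lay above every PreP library and 4 lay below every one, as described further on. Both comparisons used the same PreP libraries.

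The FDR alone was met by 4 signalling genes at PP1 (5.48%, against 6.32% of all genes). Next to MAPK8IP1 these were RGS10 and PTPRE, which were higher, and ARHGEF10L, which was lower. At PP2 the 2 DEGs also made up the genes meeting the FDR alone, against 6.35% of all genes. An unadjusted p under 0.05 was found for 19 genes at PP1, or 26% against 24.6% of all genes, and for 13 at PP2, or 18.1% against 21.4%. The median log2 fold change was 0.08 at PP1, beside 0.04 over all genes, and 0.04 at PP2, beside 0.10. An absolute log2 fold change over 1 was reached by 4 signalling genes at PP1 (5.48%, against 15.7% of all genes) and by 6 at PP2 (8.33%, against 19.4%). The sets differed in read level, as 61 of 73 signalling genes and 13644 of 18905 genes had a mean of at least 1 CPM. The part of read level in these shares was not tested. The 95% confidence interval of the log2 fold change lay wholly between -1 and 1 for 46 of 73 genes at PP1 and for 32 of 72 at PP2. For these genes a change of 1 log2 unit lay outside the interval. In no signalling gene did the libraries of 2 time points fall into separate ranges, which 0.0379% of all genes did at PP1 and 0.151% at PP2.

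MAPK8IP1 (ENSBTAG00000000317) encodes JIP1, a scaffold that gathers the kinases of the JNK cascade. Its values ran from 6.15 to 24.8 CPM at PreP (median 14.0), from 8.36 to 69.5 CPM at PP1 (median 34.9) and from 6.03 to 147 CPM at PP2 (median 23.9). At PP1, 6 of 10 libraries lay above every PreP library, while those of cows B4987, B5079, B5165 and B5169 did not. MAPK8IP1 rose from 14.5 ± 6.04 CPM (mean ± SD of 9 libraries) to 35.7 ± 22.3 CPM (mean ± SD of 10 libraries) at PP1, a log2 fold change of 1.30 (SE 0.355, edgeR FDR 0.0374), and was higher in 6 of 8 paired cows. In the paired cows alone the value was 1.17 without a block (edgeR FDR 0.0882) and 0.98 with cow as a block (edgeR FDR 0.172), so the call was lost in both. With each of the 11 cows left out in turn, the value ran from 1.13 to 1.53 and the call was kept in 3 fits, those without B4987, B5079 or B5169 (edgeR FDR up to 0.112). At PP2 the mean was 40.0 ± 45.3 CPM (mean ± SD of 9 libraries), of which cow B4886 gave 41% and 2 cows lay at 6.03 and 6.40 CPM. The log2 fold change of 1.48 against PreP did not pass (edgeR FDR 0.0871), and it was 0.92 without cow B4886 and 0.93 with cow as a block.

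PDE4D (ENSBTAG00000000494) encodes a phosphodiesterase that breaks down cAMP, and its transcript was scarce. Its values ran from 0.154 to 1.08 CPM at PreP (median 0.675), from 0 to 2.44 CPM at PP1 (median 0.973) and from 0.113 to 6.86 CPM at PP2 (median 1.78). The lowest PreP value stood for 3 reads. At PP2, 6 of 9 libraries lay above every PreP library, and those of cows B5090 (6.86 CPM, 103 reads) and B5165 (6.69 CPM, 137 reads) stood well above the rest. PDE4D rose from 0.629 ± 0.358 CPM (mean ± SD of 9 libraries) at PreP to 2.57 ± 2.49 CPM (mean ± SD of 9 libraries) at PP2, a log2 fold change of 1.98 (SE 0.555, edgeR FDR 0.0409), and was higher in 6 of 8 paired cows. In the paired cows alone it was 1.99 without a block (edgeR FDR 0.0638) and 1.61 with cow as a block (edgeR FDR 0.318), and without the PP2 library of cow B5090 it was 1.67 (edgeR FDR 0.0637), so none of these kept the call. With each of 10 cows left out in turn, it ran from 1.54 to 2.20 and the call was kept in 3 fits, those without B5064, B5079 or B5169 (edgeR FDR up to 0.125). At PP1 its log2 fold change was 0.74, with a 95% interval from -0.39 to 1.88, and 0.12 with cow as a block.

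PDE4DIP (ENSBTAG00000001564) encodes myomegalin, a protein of the Golgi and centrosome that binds PDE4D and is abundant in skeletal muscle. It lay between 17.0 and 43.5 CPM at PreP (median 22.5) and between 11.1 and 31.3 CPM at PP1 (median 19.9). At PP2 the median was 18.3 CPM, the second highest library had 42.3 CPM and that of cow B5090 had 4760 CPM, from 71467 reads. This library held 96.5% of the summed CPM of the time point. The log2 fold change of 4.32 at PP2 (SE 1.04, edgeR FDR 0.0348) became -0.26 (edgeR FDR 0.631) without it, and 0.00 with cow as a block (edgeR FDR 1). PDE4DIP was higher in 3 of 8 paired cows, and the exact permutation test on log2 CPM, two-sided, gave p = 0.90. The same library held 6640 CPM of PYGM, muscle glycogen phosphorylase, and 1600 CPM of LMOD2, a thin filament protein of striated muscle. Of the 20 skeletal muscle markers listed, only these had an ID. Their summed level was between 0.79 and 3.0 CPM at PreP, between 0.349 and 2.45 CPM at PP1 and, outside cow B5090, between 0.449 and 3.14 CPM at PP2. LMOD2 was at 0 in 4 PP1 and 4 PP2 libraries.

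Of the 73 signalling genes, 12 were highest at PP2 in that library, beside 18 in that of cow B5064. They include the p38 activator MAP2K6, the stress kinase MAP3K20 and the phosphatase DUSP10, picked out after their values were seen. MAP2K6 had 45.8 CPM there, against 3.46 to 9.82 CPM in the other PP2 libraries. MAP3K20 had 46.1 CPM, against 1.54 to 16.7 CPM, and DUSP10 had 48.4 CPM, against 8.32 to 23.3 CPM. PDE4D had its highest value of 6.86 CPM in the same library. The part of muscle RNA in these values was not tested, beyond leaving out the library.

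**Figure D1:**
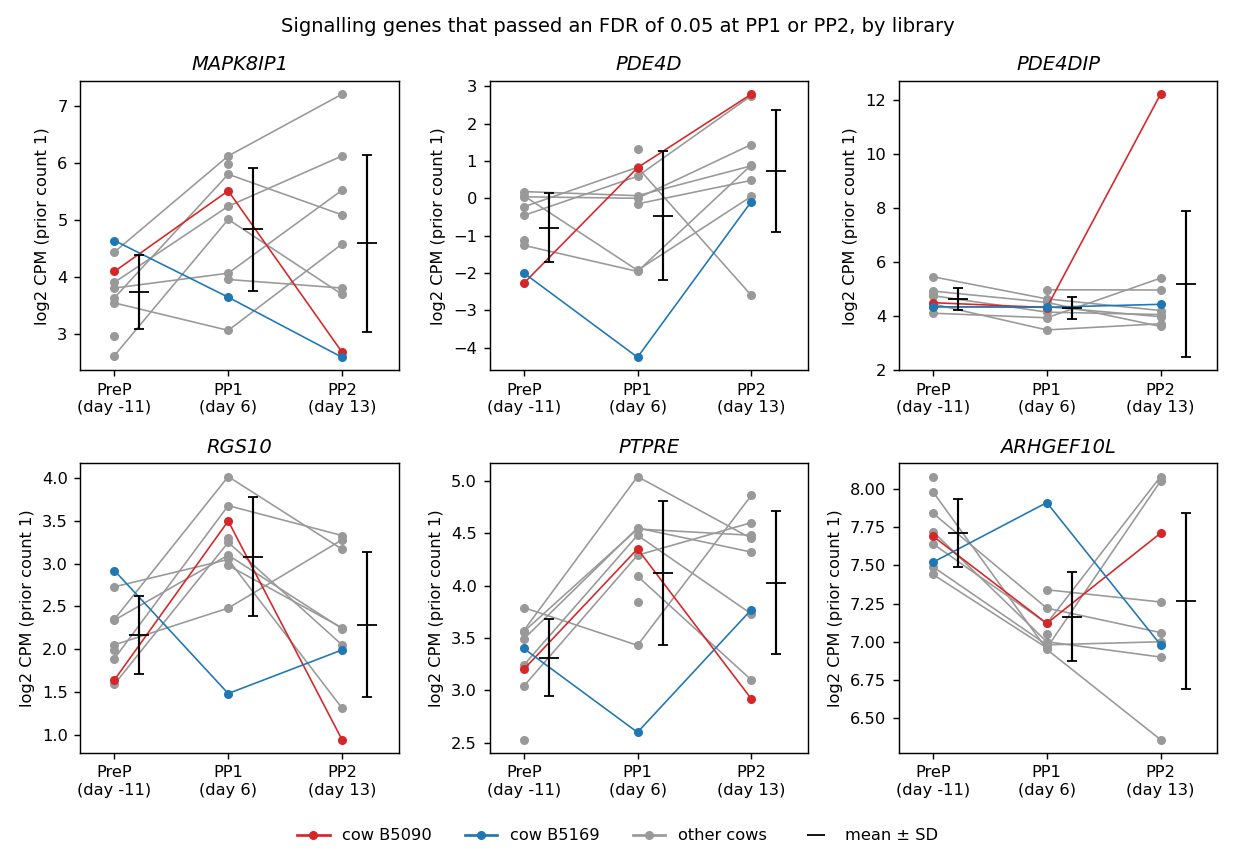
Log2 CPM (y axis, with a prior count of 1) by time point of the 6 signalling genes that met an FDR of 0.05 at PP1 or PP2. Each point is a library and each line joins the libraries of a cow, with cows B5090 and B5169 in colour and the mean ± SD in black. PDE4DIP stands at 12.22 in the PP2 library of cow B5090 and at 5.40 or lower in the other PP2 libraries.

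Among the 11 receptors, none passed the test at PP1 or PP2, and 10 were tested at PP2. ADRB1, the β1-adrenergic receptor that couples catecholamines to cAMP, lay between 2.67 and 11.5 CPM at PreP (median 3.82), between 0.731 and 5.06 CPM at PP1 (median 2.53) and between 0.668 and 14.2 CPM at PP2 (median 4.0). Its PP1 values were in the lower part of the PreP range or under it, with 6 of 10 libraries below every PreP library. The log2 fold change was -0.80 at PP1 (95% interval -1.53 to -0.06, edgeR FDR 0.167), with 6 of 8 paired cows lower, and it was -0.42 without cow B5102. At PP2 it was -0.08 (95% interval -1.14 to 0.97), with 7 of 8 paired cows lower and -0.77 with cow as a block (edgeR FDR 0.507).

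GPR63, an orphan receptor, had 7.18 ± 4.23 CPM (mean ± SD of 9 libraries) at PreP and 2.92 ± 2.30 CPM (mean ± SD of 10 libraries) at PP1. It was lower in 8 of 8 paired cows, with a log2 fold change of -1.30 that missed the threshold (edgeR FDR 0.0598). At PP2 it had 3.90 ± 2.70 CPM (mean ± SD of 9 libraries) and a log2 fold change of -0.87 (edgeR FDR 0.290), or -1.40 with cow as a block. GPR18, a receptor of lymphoid and myeloid cells, had between 0.256 and 0.903 CPM at PreP and between 0.358 and 1.63 CPM at PP1, and its highest count was 51 reads. It was higher in 8 of 8 paired cows at PP1, with a log2 fold change of 1.03 (edgeR FDR 0.0802), and in 3 of 8 at PP2, with 0.93 (edgeR FDR 0.306), or 0.55 without cow B5165. A further 7 receptors (GPR3, GPR75, GPR137B, GPR137C, GPR141, GPR161 and GPR179) had time point means of at most 16.5 CPM. GPR3 averaged 0.00599 CPM at PreP, too little for a fold change to be read.

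The 9 G protein subunits had the most abundant member, the β subunit GNB1, with 720 CPM at PreP. None passed the test. At PP1, 7 of the 9 had a negative log2 fold change, where 8614 of all 18467 genes had one, and at PP2 6 of 9, where 7619 of 18558 had one. GNB1, singled out after its values were seen, was lower in 8 of 8 paired cows at PP1, with -0.34 (edgeR FDR 0.12). GNAI1, the inhibitory α subunit that lowers adenylyl cyclase activity, lay between 97.9 and 206 CPM at PreP (median 142), between 16.4 and 176 CPM at PP1 (median 78.4) and between 2.71 and 247 CPM at PP2 (median 45.9). After calving, 6 libraries of each time point were below every PreP library, and 2 PP2 libraries were above every one. The range thus widened downward at PP1 and on both sides at PP2. The log2 fold change was -0.70 at PP1 (95% interval -1.35 to -0.04, edgeR FDR 0.179) and -0.68 at PP2 (95% interval -1.78 to 0.41, edgeR FDR 0.507), with 6 and 7 of 8 paired cows lower. With cow as a block the PP1 value was -1.09 (edgeR FDR 0.191). The PP2 value was -1.84 with cow as a block (edgeR FDR 0.101) and -1.13 without cow B5169.

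GNG2, a widely expressed γ subunit, had 97.1 ± 23.9 CPM (mean ± SD of 9 libraries) at PreP, 68.5 ± 22.5 CPM (mean ± SD of 10 libraries) at PP1 and 53.9 ± 23.8 CPM (mean ± SD of 9 libraries) at PP2. It was lower in 7 of 8 paired cows at PP1 and in 7 of 8 at PP2, with the exception being B5169 and then B5165, and had log2 fold changes of -0.50 (edgeR FDR 0.0955) and -0.85 (edgeR FDR 0.062). The adipocyte marker PPARG had means of 169, 127 and 90.7 CPM, with log2 fold changes of -0.42 and -0.89 (edgeR FDR 0.269 and 0.0917) and 5 and 7 of 8 paired cows lower, and did not pass the test. It ranged from 123 to 246 CPM at PreP, from 57.8 to 225 CPM at PP1 and from 20 to 164 CPM at PP2, with the lowest PP2 value in cow B4886, as for GNAI1. The part of adipocyte content in these values was not tested. GNAL, the olfactory stimulatory α subunit, stayed between 6.46 and 7.25 CPM on average, with log2 fold changes of 0.16 and 0.01. GNGT1, the γ subunit of rod transducin, had 14 reads at most and a log2 fold change of -1.72 at PP2 (edgeR FDR 0.213), or -1.07 with cow as a block. GNG4, singled out after its values were seen, had no reads in 7 of 9 PreP libraries and up to 17 reads at PP1, so no fold is given.

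Of the regulators of receptor and G protein activity, RGS10 (ENSBTAG00000002647) met the FDR at PP1. RGS10 speeds the GTP hydrolysis of inhibitory α subunits and is known from macrophages. Its values ran from 2.97 to 7.50 CPM at PreP (median 4.09), from 2.74 to 16.2 CPM at PP1 (median 8.97) and from 1.87 to 9.97 CPM at PP2 (median 4.68). At PP1, 8 of 10 libraries lay above every PreP library, and that of cow B5169 lay below every one. RGS10 had a log2 fold change of 0.99 at PP1 (SE 0.257, edgeR FDR 0.0285), just under the fold threshold, with 7 of 8 paired cows higher, and 0.26 at PP2 (edgeR FDR 0.715). With cow as a block the PP1 value was 0.91 (edgeR FDR 0.181). The receptor kinase GRK3 had log2 fold changes of 0.25 and 0.22, with 95% intervals from -0.21 to 0.72 and from -0.39 to 0.84. GRK4 averaged 13.4 to 15.4 CPM.

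Macrophage markers met the FDR at PP1 in the same direction as RGS10, with log2 fold changes of 2.12 for CD68, 1.90 for MSR1 and 0.58 for FCGR3A (edgeR FDR 0.00314, 0.00249 and 0.0125). At PP2 these were 1.48, 0.88 and 0.12 (edgeR FDR 0.0206, 0.165 and 0.866), and FCGR3A was lower in 6 of 8 paired cows. With cow as a block none met the FDR at PP1 (edgeR FDR 0.0679, 0.0657 and 0.117). CD68, a lysosomal protein of macrophages, had 48.8 ± 26.9 CPM (mean ± SD of 9 libraries) at PreP, 213 ± 93.5 CPM (mean ± SD of 10 libraries) at PP1 and 135 ± 77.6 CPM (mean ± SD of 9 libraries) at PP2. The 3 of 17 listed markers with an ID (CD68, MSR1 and FCGR3A) summed to between 53.1 and 158 CPM at PreP, between 75.7 and 489 CPM at PP1 and between 72.2 and 375 CPM at PP2, and none was at 0 in any library. The lowest sum at PP1 was in the library of cow B5169, where RGS10 (2.74 CPM) and PTPRE (6.00 CPM) were also lowest. The lowest sum at PP2 was in that of cow B5090, where RGS10 (1.87 CPM) and PTPRE (7.53 CPM) were lowest. The high ends matched less. At PP1 the sum was highest in cow B5079, where RGS10 had 7.82 CPM, while RGS10 was highest in B5165 and PTPRE in B5064. At PP2 the sum and RGS10 were highest in cow B5129 and PTPRE in B4987. GPR18 was lowest in other libraries at PP1 (0.358 CPM in cow B5129) and at 0.133 CPM in both B5090 and B5102 at PP2. The part of macrophage number in these values was not tested.

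The 5 other cyclic nucleotide genes beside PDE4D and PDE4DIP did not pass the test. ADCY10, the soluble adenylyl cyclase that responds to bicarbonate, had 25 reads at most, with means of 0.532, 0.399 and 0.347 CPM at PreP, PP1 and PP2. PDE1C, a phosphodiesterase activated by calcium and calmodulin, averaged 3.16, 3.49 and 3.11 CPM, with log2 fold changes of 0.14 and -0.03. PDE6G, a subunit of the rod phosphodiesterase, had 25 reads at most and a log2 fold change of -1.42 at PP2 (edgeR FDR 0.244). The cGMP-dependent kinase PRKG2, singled out after its values were seen, had medians of 1.89, 0.792 and 0.452 CPM at the 3 time points, and cow B5169 held 51.2% of the summed CPM at PP2. It was lower in 8 of 8 paired cows at PP1, with a log2 fold change of -0.87 (edgeR FDR 0.238) and -1.07 with cow as a block (edgeR FDR 0.0846), and in 7 of 8 at PP2, with -0.48 (edgeR FDR 0.775) and -1.84 with the block (edgeR FDR 0.118). PDE6C, a cone phosphodiesterase subunit, averaged 0.423 to 0.807 CPM.

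PRKAA1 (ENSBTAG00000000013), the α1 catalytic subunit of AMPK, lay between 7.21 and 29.3 CPM at PreP (median 24.8), between 19.3 and 37.4 CPM at PP1 (median 28.9) and between 4.19 and 37.8 CPM at PP2 (median 35.0). Of the PP2 libraries, 6 of 9 were above every PreP library and those of cows B4886 (4.19 CPM) and B5064 (9.66 CPM) were far under the others. PRKAA1 was higher in 7 of 8 paired cows at PP1 and in 6 of 8 at PP2. Neither difference passed the test, with log2 fold changes of 0.34 (95% interval -0.07 to 0.76, edgeR FDR 0.296) and 0.32 (95% interval -0.40 to 1.03, edgeR FDR 0.669). The PP2 value was 0.02 with cow as a block (edgeR FDR 0.992) and ran from 0.13 to 0.47 with a cow left out, lowest without B5169. PRKAG2, the γ2 subunit that binds AMP and ATP, averaged 29.5, 29.6 and 26.5 CPM. Its log2 fold changes of 0.00 and -0.14 had 95% intervals from -0.34 to 0.34 and from -0.54 to 0.26, so a change of 1 log2 unit lay outside both.

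Of the 52 further genes listed for lipolysis and for AMPK signalling, 5 had an ID. Of these 5, FFAR4 passed the test at PP2. FFAR4 is a receptor of long-chain fatty acids, and it was lower after calving. FFAR4 had 18.1 ± 9.0 CPM (mean ± SD of 9 libraries) at PreP, 4.33 ± 5.39 CPM (mean ± SD of 10 libraries) at PP1 and 3.13 ± 4.75 CPM (mean ± SD of 9 libraries) at PP2. In 8 of 8 paired cows it was lower at both later time points, with log2 fold changes of -2.06 (edgeR FDR 0.0751) and -2.48 (edgeR FDR 0.0377), and with cow as a block the values were -3.46 (edgeR FDR 0.0868) and -4.24 (edgeR FDR 0.00914). With 1 cow left out the PP2 value ran from -3.17 to -2.11, and the call was kept without B5079 or B5169 but not without any of the other 8 (edgeR FDR up to 0.113). HCAR1, the lactate receptor that restrains lipolysis through inhibitory G proteins, averaged 16.3, 13.4 and 14.4 CPM, with log2 fold changes of -0.29 and -0.17. The PP1 value was -0.65 without cow B4987 and -0.07 without B5169, and the PP2 value was -0.07 without B4987. The insulin-signalling kinase AKT2 had -0.72 and -0.69 (edgeR FDR 0.0862 and 0.0741), with 7 of 8 paired cows lower at each. STRADA, a partner of the AMPK-activating kinase LKB1, had 0.41 (0.26 without cow B5102) and 0.43 (0.28 without B4886), and RPTOR, the mTORC1 subunit phosphorylated by AMPK, had -0.50 and -0.33, and neither gene passed the test.

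**Figure D2:**
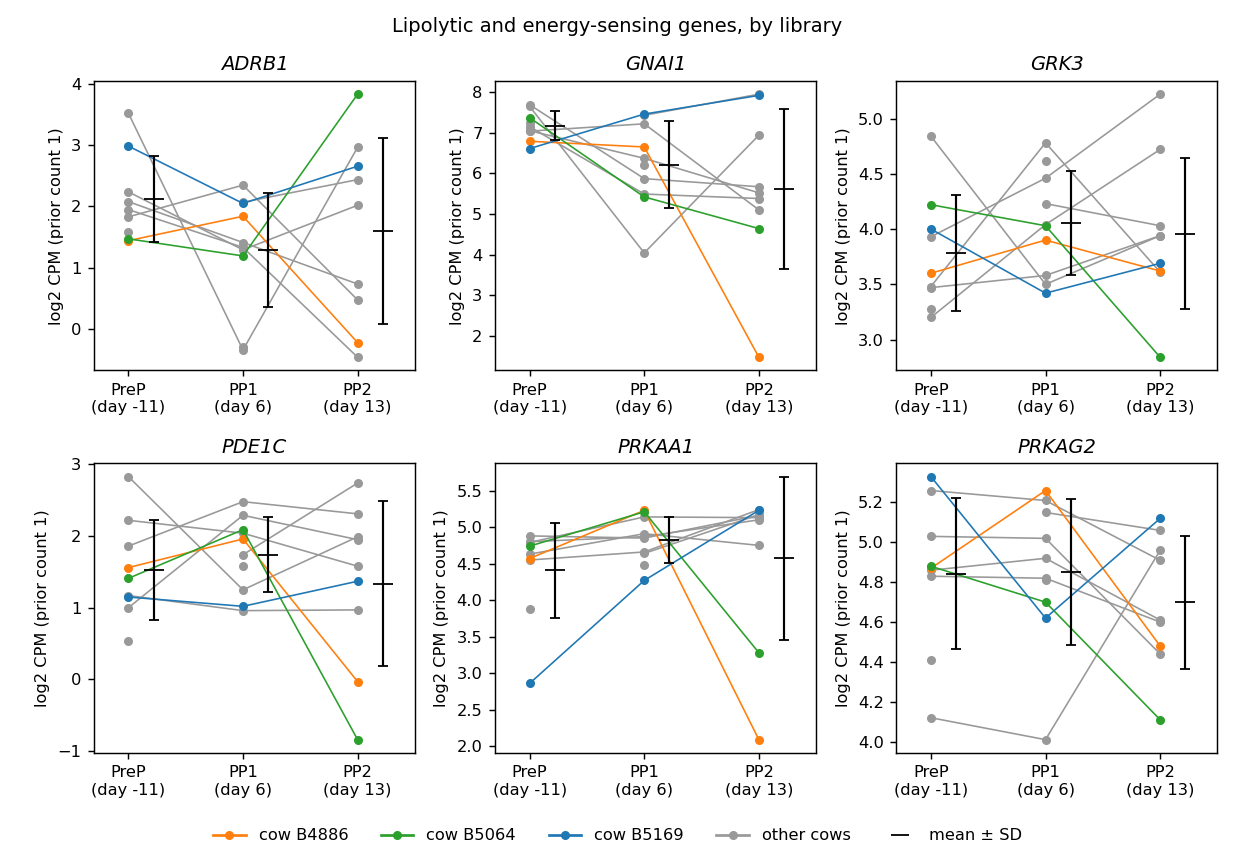
Log2 CPM (y axis, with a prior count of 1) by time point of ADRB1, GNAI1, GRK3, PDE1C, PRKAA1 and PRKAG2. Each point is a library and each line joins the libraries of a cow, with cows B4886, B5064 and B5169 in colour and the mean ± SD in black. GNAI1 and PRKAA1 are lowest at PP2 in cow B4886, with 2.71 and 4.19 CPM.

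The 4 genes of the PKC and PKD group did not pass the test. PRKCA, a conventional PKC, averaged 13.2, 12.4 and 14.4 CPM with log2 fold changes of -0.08 and 0.13, and the 95% intervals ran from -0.43 to 0.26 and from -0.28 to 0.53. PRKCI, PRKD3 and PRKRA, an activator of the kinase PKR that is no kinase itself, averaged between 5.11 and 44.3 CPM.

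In the MAP kinase cascade, 1 of 9 genes, MAPK8IP1, was a DEG at PP1 and none at PP2. MAP2K5, the kinase that activates ERK5, had 35.9 ± 7.19 CPM (mean ± SD of 9 libraries) at PreP, 27.1 ± 7.75 CPM (mean ± SD of 10 libraries) at PP1 and 27.1 ± 6.99 CPM (mean ± SD of 9 libraries) at PP2. It lay below every PreP library in 8 of 10 PP1 and 6 of 9 PP2 libraries, with a log2 fold change of -0.41 at both (edgeR FDR 0.107 and 0.177). ERK5 itself, MAPK7, averaged 48.8, 47.0 and 53.8 CPM. MAP2K6, MAP3K7, MAP3K20, MAP4K2, MAPK8IP3, which encodes another JNK scaffold, and the phosphatase DUSP10 did not pass the test.

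PIK3R2, a regulatory subunit of PI3K in insulin signalling, had 49.9 ± 10.6 CPM (mean ± SD of 9 libraries) at PreP, 81.2 ± 45.3 CPM (mean ± SD of 10 libraries) at PP1 and 93.7 ± 60.7 CPM (mean ± SD of 9 libraries) at PP2. No later library was below the PreP range, and 4 at PP1 and 5 at PP2 were above it. The log2 fold changes were 0.70 (edgeR FDR 0.0849) and 0.90 (edgeR FDR 0.0595), with 6 and 7 of 8 paired cows higher, and did not pass. The PP1 value was 0.43 without cow B5102. PIK3R3 averaged between 8.15 and 9.67 CPM.

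Among the 8 genes of the PTP family, PTPRE (ENSBTAG00000002435), a receptor phosphatase abundant in blood cell lineages, met the FDR at PP1. It ran from 5.74 to 13.8 CPM at PreP (median 10.5), from 6.00 to 32.8 CPM at PP1 (median 19.9) and from 7.53 to 28.9 CPM at PP2 (median 19.9). Above every PreP library were 8 of 10 PP1 and 5 of 9 PP2 libraries. PTPRE had a log2 fold change of 0.90 at PP1 (SE 0.231, edgeR FDR 0.027) and 0.80 at PP2 (SE 0.256, edgeR FDR 0.0661), with 6 and 7 of 8 paired cows higher. Its block value at PP1 was 0.76 (edgeR FDR 0.146). PTPRF, a receptor phosphatase that acts on the insulin receptor, had 15.7 ± 3.80, 24.1 ± 8.71 and 30.7 ± 22.1 CPM (mean ± SD of 9, 10 and 9 libraries) at PreP, PP1 and PP2. The medians were 15.5, 21.8 and 19.2 CPM, and the highest PP2 libraries had 67.2 and 64.4 CPM. Its log2 fold changes were 0.62 (edgeR FDR 0.0715) and 0.96 (edgeR FDR 0.0862), with 6 and 4 of 8 paired cows higher. With cow as a block the PP2 value was 0.80 (edgeR FDR 0.327). PTPA carries the prefix but activates the serine/threonine phosphatase PP2A. It averaged 163, 117 and 145 CPM, with -0.48 at PP1 (edgeR FDR 0.0945) and -0.18 at PP2. The other 5 (PTPRT, PTPN7, PTPN11, PTPN23 and PTP4A1) did not pass the test. Of these PTPN11, singled out after its values were seen, was lower in 8 of 8 paired cows at PP1, with -0.61 (edgeR FDR 0.151) and -0.85 with cow as a block (edgeR FDR 0.0908).

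Among the 8 ARHGEF and ARHGAP genes, which encode exchange factors that load small GTPases with GTP and GTPase-activating proteins that switch them off, ARHGEF10L (ENSBTAG00000000684), an exchange factor, met the FDR at PP1 with a small change. It lay between 173 and 271 CPM at PreP (median 206), between 123 and 240 CPM at PP1 (median 136) and between 82.0 and 270 CPM at PP2 (median 133). At PP1, 9 of 10 libraries were below every PreP library, and the remaining library was that of cow B5169. The log2 fold change was -0.53 (SE 0.136, edgeR FDR 0.0231), with 7 of 8 paired cows lower, and with cow as a block it was also -0.53 (edgeR FDR 0.107). At PP2 it was -0.36 (edgeR FDR 0.347). ARHGAP6, a GTPase-activating protein, averaged 17.3, 13.1 and 11.1 CPM, with -0.40 (edgeR FDR 0.163) and -0.62 (edgeR FDR 0.0859), and it was lower in 8 and 7 of 8 paired cows. ARHGAP31, which switches off Rac and Cdc42, averaged 56.7, 62.7 and 78.4 CPM, with 0.15 and 0.47 (edgeR FDR 0.683 and 0.123). ARHGEF2, ARHGEF5, ARHGAP10, ARHGAP20 and ARHGAP27 did not pass the test.

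The 9 Rab GTPases (RAB2A, RAB3D, RAB6A, RAB6B, RAB10, RAB11B, RAB26, RAB27B and RAB30) averaged between 1.21 and 187 CPM, and their log2 fold changes ran from -0.39 to 0.31 at PP1 and from -0.32 to 0.61 at PP2. RAB10, which carries the glucose transporter GLUT4 to the adipocyte surface, averaged 75.6, 85.8 and 88.2 CPM. RAB6A and RAB6B are close paralogs, and how reads shared between them were counted is not given in the sources used here. RASGRP2, an exchange factor of Rap and Ras, averaged 18.5, 22.3 and 30.9 CPM. None of these 10 genes passed the test.

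The libraries of PP2 differed more from each other than those of PreP. Over the 61 signalling genes with a mean of at least 1 CPM, the median SD of log2 CPM between cows was 0.42 in the PreP libraries, 0.48 in those of PP1 and 0.79 in those of PP2. The SD at PP2 was larger than at PreP for 55 of these genes, or 90.2%. Over all 13644 genes of that level the medians were 0.42, 0.43 and 0.76, and 88.4% of genes had the larger SD at PP2, so this pattern was shared by the whole table. Of the 73 signalling genes, 22 had their lowest PP2 value in the library of cow B4886 and 18 their highest in that of cow B5064. Where several libraries had no reads, the first in order was counted. The 22 thus include ties for GPR3, GPR75, GPR179, GNG4, GNGT1 and PDE6C.

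Between PP2 and PP1, 0 of 73 signalling genes were DEGs, as were 0% of 18518 genes, and 0 met the FDR alone, again beside 0% of all genes, in edgeR's quasi-likelihood test. DESeq2 and limma voom also made 0 calls, and edgeR's likelihood ratio test made 1, PDE4DIP. An unadjusted p under 0.05 was found for 2 signalling genes, or 2.74%, against 5.6% of all genes. They were PDE4DIP, by the library of cow B5090, and RGS10, with a log2 fold change of -0.74 (95% interval -1.42 to -0.05, edgeR FDR 0.831) and 7 of 9 paired cows lower at PP2. PDE4D had a log2 fold change of 1.28 (95% interval -0.05 to 2.61, edgeR FDR 0.912), with 8 of 9 paired cows higher at PP2. The median log2 fold change of the signalling genes was 0.00, beside 0.03 over all genes, and 45 of 73 intervals lay wholly between -1 and 1.

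Which genes were DEGs depended on single cows, and the share of all genes called moved too. At PP1, leaving out 1 cow at a time gave 0 to 4 DEGs among the signalling genes. There were 4 without cow B5169 (GPR63, RGS10, MAPK8IP1 and PTPRE), beside 9.5% of all genes, 3 without B4987, beside 3.31%, and 3 without B5079, beside 4.74%. There were 0 without each of B4886, B5054, B5090, B5102, B5129 and B5165, beside 1.61% to 2.76% of all genes. Leaving out only the PP1 library of cow B5169 gave 5 DEGs among the signalling genes (GPR18, GPR63, RGS10, MAPK8IP1 and PTPRE), beside 8.84% of all genes. At PP2 the count was also 0 to 4. It was 4 without cow B5169 (PDE4D, PDE4DIP, MAPK8IP1 and PIK3R2), beside 7.22% of all genes, and 1 without B5102, beside 3.54%. It was 0 without each of B4886, B4987, B5090, B5129, B5165 and B5176, beside 2.49% to 4.43%. Without the PP2 library of cow B5090 alone the DEGs were MAPK8IP1 and PTPRF, beside 6.11% of all genes.

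**Figure D3:**
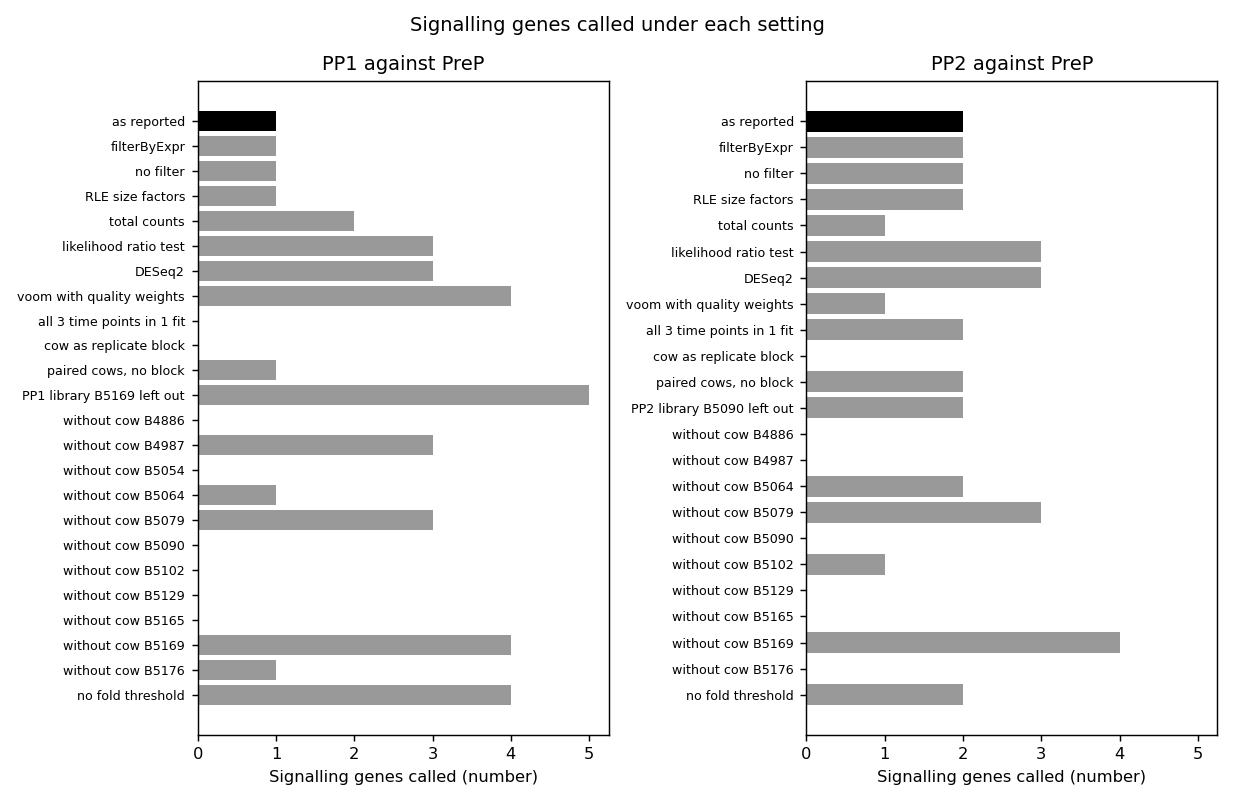
Number of signalling genes called (x axis) at PP1 (left) and PP2 (right) against PreP, with the reported value in black and each alternative in grey on the y axis. Counts run from 0 to 5 at PP1 and from 0 to 4 at PP2, and cow as a block gives 0 at both.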

How the data were processed

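The deposited values are raw read counts per gene, which the authors made by mapping filtered reads to the bovine genome (bosTau7 by the study's methods) with HISAT2 2.1.0 and counting with HTSeq 0.6.1. Strandedness, annotation release and the treatment of reads with several places are not given in the sources used here, and reads shared by overlapping or near-identical genes could fall to either. All 28 columns were used. Total counts per library ran from 15293154 to 22284884 (median 19088705), and 3 reads stood for 0.127 to 0.2 CPM, counting error only. Biopsies of a time point came from different cows.

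Genes whose count reached 3 in any compared library were tested with edgeR 4.0.16 (R 4.3.3), scaled by TMM, with each pair of time points fitted alone and without a term for cow, by the quasi-likelihood test and Benjamini-Hochberg adjustment. Standard errors and 95% intervals are those of the fitted log2 fold change. Libraries of the same cow pair by animal. After removal of time point means, their mean correlation across genes was 0.0979 (PreP and PP1), 0.0166 (PreP and PP2) and 0.102 (PP1 and PP2), and the fit with cow as a replicate block used cows with both samples. Exact permutation tests were run on log2 CPM (prior count 1). Alternatives were other filters and scalings, DESeq2 1.42.0, voom of limma 3.58.1, the likelihood ratio test, all time points in 1 fit, the block, and cows or single libraries left out.

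Symbols came from the part of a supplementary table of the study that was at hand. Named genes were 11 lipolytic and energy-sensing genes, each DEG, and the 5 smallest p in each direction at PP1 and PP2 among all signalling genes not called in that comparison. GNB1, GNG4, PRKG2, PTPN11, MAP2K6 and MAP3K20 fall outside this rule, and 1 item is not reported here. The genes and lists were chosen with earlier results of these data known.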

Additional observations from a re-analysis of the deposited data

Results flagged for a closer look

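For 7 of the 78 combinations of a named gene and a time point, 1 library stood apart from the rest of its group by Dixon's criterion, where chance alone would give about 3.9. PDE4DIP had 12.22 log2 CPM in the PP2 library of cow B5090, with the nearest other library at 5.40. The PP1 library of cow B5169 was the highest for ARHGEF10L, at 7.91 log2 CPM with the nearest at 7.34, and for MAP2K5, at 5.55 with the nearest at 4.97. PRKAA1 had 2.86 log2 CPM in the PreP library of the same cow, with the nearest at 3.88. GNAL had 4.17 log2 CPM in the PP1 library of cow B4987, with the nearest at 3.07. PRKAG2 had 4.01 log2 CPM in the PP1 library of cow B5102, with the nearest at 4.62. PTPA had 8.06 log2 CPM in the PreP library of cow B5176, with the nearest at 7.46.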

How the results depend on the processing

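The count of DEGs among the signalling genes at PP1, reported as 1, was 2 with total counts (3.95% of all genes called), 3 with the likelihood ratio test (5.79%) and with DESeq2 (5.72%), 4 with voom (8.62%) and without the fold threshold (6.32%), 5 without the PP1 library of cow B5169 (8.84%), and 0 with all 3 time points in 1 fit (1.64%) and with cow as a replicate block (0.256%). At PP2, reported as 2, it was 1 with total counts (4.61%) and with voom (5.86%), 3 with the likelihood ratio test (7.85%, MAPK8IP1 added) and with DESeq2 (7.08%; PDE4D, MAPK8IP1 and PTPRF), and 0 with the replicate block (2.17%). Between PP2 and PP1 it was 1 instead of 0 with the likelihood ratio test (0.864%) and with all 3 time points in 1 fit (0.931%). With each cow left out in turn it was 0 to 4 at PP1, 0 to 4 at PP2 and 0 in the last comparison. The fit with the block used only cows with both samples, and the same cows without a block gave 1 at PP1 (GPR63, not MAPK8IP1), 2 at PP2 (PDE4DIP and PIK3R2, not PDE4D) and 0 between PP2 and PP1. The cause of these shifts was not tested.

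Of 1415 log2 fold changes of named genes under an alternative, 34 changed sign, none with an FDR under 0.05. Values of 0.00 count as having no sign, and PRKAG2 at PP1, reported as 0.00, was -0.10 with the replicate block. With the replicate block these were GNGT1 at PP1 (0.56), GNAL at PP2 (-0.27) and MAPK8IP1 from PP1 to PP2 (-0.11). With the paired cows and no block they were GNGT1 (0.54) and PDE6G (0.02) at PP1 and GNAL (-0.16) at PP2. With voom they were PRKCA at PP1 (0.10), PDE1C (0.12) and HCAR1 (0.19) at PP2 and MAPK8IP1 from PP1 to PP2 (-0.86). GNAL at PP2 was -0.02 without a filter and -0.03 with total counts, and GNGT1 at PP1 was 0.01 without the PP1 library of cow B5169. PDE4DIP at PP2 was -0.26 without the PP2 library of cow B5090 and -0.26 with DESeq2, which replaces outlying counts. With each cow left out, at PP1, GNGT1 ran from -0.50 to 0.34 and PDE6G from -1.33 to 0.11. At PP2, ADRB1 ran from -0.54 to 0.07, GNAL from -0.19 to 0.20, PDE1C from -0.27 to 0.18 and PDE4DIP from -0.28 to 4.63, and from PP1 to PP2 MAPK8IP1 ran from -0.29 to 0.35. For the 22 named genes whose PP2 to PP1 value is not given, 39 of 481 values changed sign and 0 were called. Depth limited the genes with few reads, such as GNGT1, PDE6G, ADCY10 and GPR18.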

Other observations

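Markers of other cells of the tissue, each the only 1 of its list with an ID, gave these values. LUM, a proteoglycan of fibroblasts, had 139 ± 58.1 CPM (mean ± SD of 9 libraries) at PreP, 699 ± 492 CPM (mean ± SD of 10 libraries) at PP1 and 638 ± 780 CPM (mean ± SD of 9 libraries) at PP2, with log2 fold changes of 2.33 (edgeR FDR 0.00249, higher in 8 of 8 paired cows) and 2.18 (edgeR FDR 0.0121, higher in 6 of 8). With cow as a block the PP1 value was 2.13 (edgeR FDR 0.0282) and that call was kept. The PP2 value was 1.70 with the block (edgeR FDR 0.137), so the PP2 call was lost. The PP2 library of cow B4987 held 45.9% of the summed CPM of its time point, whose median was 298 CPM. KDR of endothelial cells averaged 217, 272 and 274 CPM and PDGFRB of pericytes 461, 549 and 647 CPM, and neither passed the test. CD79A of B cells had medians of 2.45, 4.20 and 3.91 CPM and did not pass either, and cow B4886 held 47.7% of its summed CPM at PP2. Blood had no marker with an ID, and the milk protein gene CSN2 did not reach 3 reads in any library.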
